A study of Rattus norvegicus with 10 samples.

Results

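Heat shock proteins and chaperones are described here across erectile tissue of control and diabetic rats, by 8 genes: Hspb1, Hspa8, Hspa5, Hsph1, Hspd1, Hsp90aa1, Dnajb1 and Dnajb5. They were read by every probe set, the group of probes that measures 1 transcript on the array, whose annotation names 1 of these genes and no other. This rule found 8 probe sets for 6 of the 8 genes, among 12783 probe sets for 10411 genes that carry 1 gene name. Dnajb1 and Dnajb5 had 2 probe sets each, and Hspb1, Hspa5, Hsph1 and Hspd1 had 1 each. The other two genes, Hspa8 and Hsp90aa1, were named only together with a further gene, on 3 probe sets. All 8 probe sets found by the rule passed the filter on dim signals, 7 of them on 10 of 10 arrays and the dimmer Dnajb5 probe set on 6.

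The samples are total RNA from cavernosal (erectile) tissue of rats of the inbred strain F344, and each was hybridised to its own Affymetrix RAE230A array. The 5 control samples carry no treatment in their labels. The 5 diabetic samples came from rats given streptozotocin, a toxin that destroys the insulin-producing cells of the pancreas, and are labelled as diabetic at 10 weeks. The source is labelled as penis, so the rats were male. Age is not stated, and no label says that the samples of a group are separate animals, so the spread that p-values rest on may be technical. Streptozotocin makes a model of insulin loss by a chemical, which may also act on other tissues, and no label gives an agent or a vehicle for the controls.

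Chaperones are proteins that help other proteins to fold. Hsp70 proteins such as Hspa8 in the cytosol and Hspa5 in the endoplasmic reticulum bind unfolded stretches, J-domain proteins such as Dnajb1 bring them their substrates and start their ATP cycle, and Hsph1 releases the spent nucleotide. Small heat shock proteins such as Hspb1 hold unfolding proteins in solution, and Hspd1, with its lid Hspe1, forms the folding chamber of mitochondria. In mammals the heat shock factor Hsf1 induces many cytosolic and mitochondrial members under stress, whereas Hspa5 answers to the unfolded protein response of the endoplasmic reticulum, an organelle that is large in secreting cells.

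The promoters are shown because these 2 stress responses act through different DNA elements. RefSeq windows on build GRCr8, from 250 bases before to 50 after the start site that its table uses, were at hand for 7 of the 8 genes. Searched on both strands were a 3-unit heat shock element (GAA, TTC and GAA, with 2 free bases between units), the endoplasmic reticulum stress element (CCAAT and CCACG with 9 free bases between) and its type II form (ATTGG and CCACG with 1 free base between). Capitals mark the fixed letters of a match. The windows are chr3:38452766-38453065 on the plus strand for Hspa5, chr12:10427118-10427417 on the plus strand for Hsph1, chr9:64083988-64084287 on the minus strand for Hspd1 and chr5:61972456-61972755 on the plus strand for Dnajb5.
Hspa5: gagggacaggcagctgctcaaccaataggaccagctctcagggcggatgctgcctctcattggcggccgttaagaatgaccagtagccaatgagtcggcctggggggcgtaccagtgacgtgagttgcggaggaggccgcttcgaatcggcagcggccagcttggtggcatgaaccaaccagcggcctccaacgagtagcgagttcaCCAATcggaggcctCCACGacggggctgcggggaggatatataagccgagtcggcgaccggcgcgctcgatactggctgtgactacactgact
Hsph1: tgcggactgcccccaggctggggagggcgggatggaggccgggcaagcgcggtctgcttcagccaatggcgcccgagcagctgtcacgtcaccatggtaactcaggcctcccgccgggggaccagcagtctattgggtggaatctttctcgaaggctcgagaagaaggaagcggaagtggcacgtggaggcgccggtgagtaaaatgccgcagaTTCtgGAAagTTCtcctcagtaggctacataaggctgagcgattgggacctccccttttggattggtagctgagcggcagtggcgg
Hspd1: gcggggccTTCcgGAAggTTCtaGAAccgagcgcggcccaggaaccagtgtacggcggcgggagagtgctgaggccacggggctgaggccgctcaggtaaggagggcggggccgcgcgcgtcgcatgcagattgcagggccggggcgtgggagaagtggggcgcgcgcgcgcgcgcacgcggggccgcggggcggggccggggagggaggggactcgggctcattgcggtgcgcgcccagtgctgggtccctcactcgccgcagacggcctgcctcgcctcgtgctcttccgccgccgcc
Dnajb5: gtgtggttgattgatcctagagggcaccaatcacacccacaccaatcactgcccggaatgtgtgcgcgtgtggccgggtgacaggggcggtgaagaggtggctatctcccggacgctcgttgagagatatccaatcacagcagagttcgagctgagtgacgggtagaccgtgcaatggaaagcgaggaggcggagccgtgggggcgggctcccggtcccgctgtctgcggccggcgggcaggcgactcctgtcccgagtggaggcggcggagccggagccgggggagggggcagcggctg

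Of the 7 windows, 3 held the heat shock element (Hspa8, Hspd1 and Hsph1), against 0.798% of all 33469 promoter windows of this length. The Hspd1 window held 2 overlapping copies and shared 211 bases with the window of Hspe1, which lies on the opposite strand, so both windows hold the same copies. The gene record of Hspd1 reaches to chr9:64084332, past its window, so this window and its copies lie inside the annotated gene. That of Dnajb5 begins at chr5:61972637, before the start site used for its window. Hspa5 alone held the endoplasmic reticulum stress element, found in 0.0657% of all windows, from 43 to 25 bases before its start. The windows of Dnajb1, Dnajb5 and Hspb1 held none of the 3 motifs, which says only that these letters are not in these windows.

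For all 8 probe sets of the 6 genes measured, the difference between diabetic and control tissue lay within the spread between samples. With limma, a linear model fitted over all probe sets tested, 0 of the 8 probe sets passed an adjusted p of 0.05, against 41 of 9683 tested (0.423%). At an unadjusted p under 0.05 there were likewise 0 of 8, against 17.5% of all probe sets tested, and the diabetic and control values overlapped for each of the 8, whereas they did not overlap for 3.89% of all. With arrays weighted by their fit to their group, which gave controls 3 and 5 the lowest weights, Hspa5 and the dimmer Dnajb1 probe set were called higher, among 29.1% of all probe sets. The largest of the 6 differences by brightest probe set was that of Hspa5, at 0.42 ± 0.33 (SE) on the log2 scale, and the smallest was that of Hspd1, at 0.02 ± 0.10. With 1 array left out, Hspa5 ran from 0.23 without control 1 (0.25 without control 2) to 0.68 without control 5, and Dnajb5 from -0.12 without control 2 to -0.62 without control 3. The spread inside a group differed widely between genes. Hspa5 ranged 3.53-fold over the 5 control samples and 1.54-fold over the diabetic ones, Dnajb5 4.39-fold and 2.43-fold, and Hspd1 1.10-fold and 1.33-fold. All log2 values here are of intensity + 16, so they understate changes of dim probe sets.

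**Figure D1:**
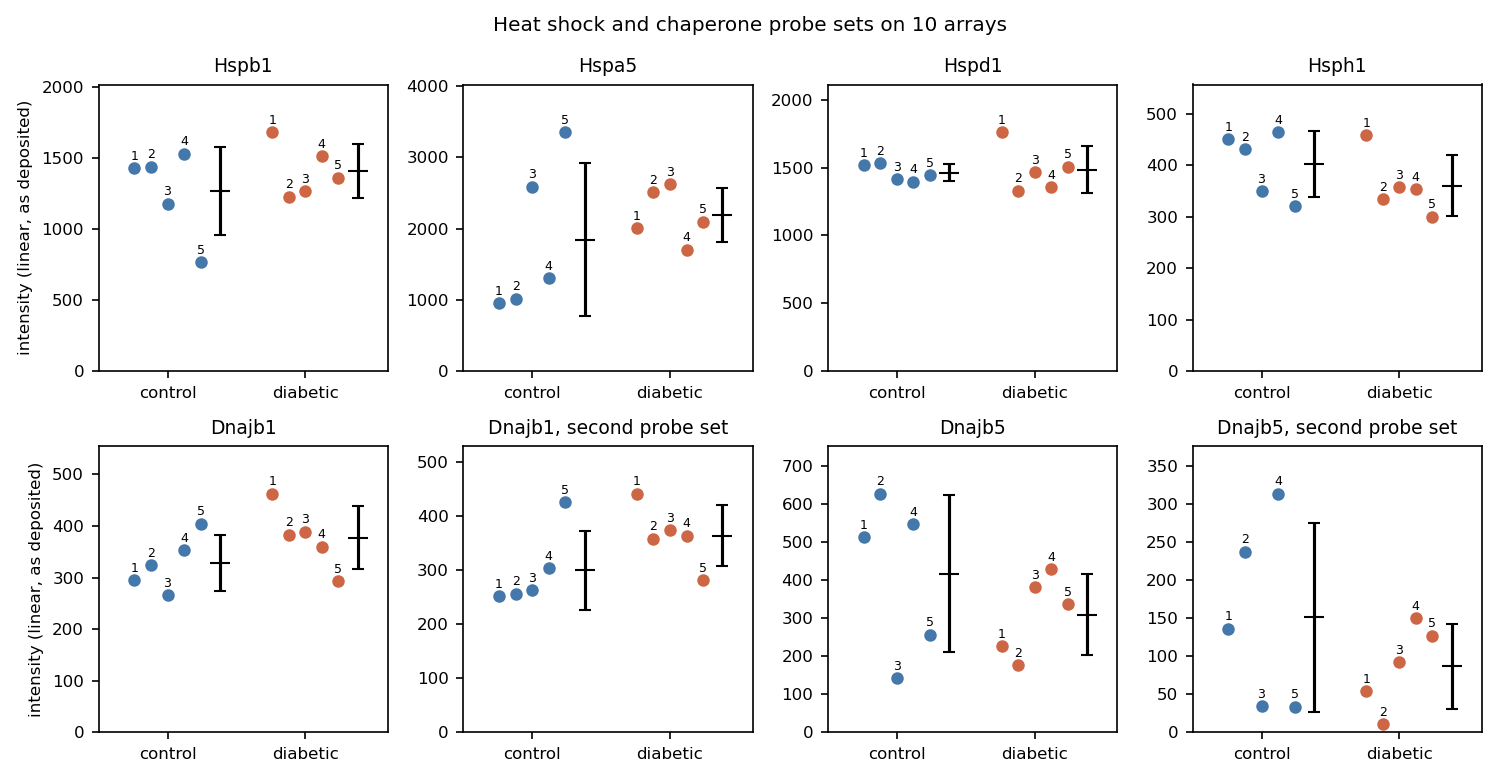
Intensity (linear, as deposited) of the 8 probe sets, 1 panel each, on 5 control and 5 diabetic arrays; numbers give the replicate, and the bar beside each group is its mean with the SD. Hspd1 ranges 1.10-fold among controls and 1.33-fold among diabetic samples, whereas Hspa5 and Dnajb5 spread 3.53-fold and 4.39-fold among the controls, in opposite order.

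Hspa5, also called GRP78 or BiP, is the Hsp70 of the endoplasmic reticulum. Its intensity in controls 1 to 5 was 949.0, 1014.8, 2586.7, 1306.2 and 3352.7. In diabetic samples 1 to 5 it was 2003.1, 2509.9, 2621.8, 1703.9 and 2095.3. Controls 1, 2 and 4 thus lay below every diabetic sample, while control 5 lay above all of them and control 3 above all but one. The means were 1842 ± 1073 in control and 2187 ± 377 in diabetic tissue (SD, n = 5 each). The fold change of diabetic over control, turned back from the difference of mean log2 values, was 1.33, with a 95% interval from 0.802 to 2.22 (limma adjusted p = 0.512, exact permutation p = 0.278). The SD of its log2 values was 3.24 times as large in control as in diabetic samples, and 5.65% of tested probe sets had a larger control SD. Controls varied more than diabetic samples for 77% of all tested probe sets.

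The spread of Hspa5 among the controls moved with epithelial genes. A list of 15 tested epithelial genes (of 16 listed, among them keratins, claudins, Cdh1 and Epcam) had a mean log2 level of 5.79, 5.80, 9.0, 7.51 and 9.49 in controls 1 to 5, and 8.53 to 9.57 in the diabetic samples. None of the 15 was listed at 0 in any sample, but Cdh1, the epithelial cadherin, read as low as 3.3 in a control, against 228.3 to 688.7 in diabetic samples. Of 3 tested secretory gland genes (of 6 listed) Pip, a secreted gland protein, ran from 8.8 to 8140 in controls and from 5774.3 to 7428.9 in diabetic samples. Among the diabetic samples the order was not as close: number 4 had the lowest epithelial level, 8.53, and the lowest Hspa5, but number 1 had the next lowest Hspa5 at an epithelial level of 9.44. Controls 1, 2 and 4 had the lowest Hspa5 of the controls, so leaving them out had to lower the difference. Without them, a choice made after the data were seen, the Hspa5 difference was -0.44 in place of 0.42 (limma adjusted p = 0.296). With the epithelial mean as a covariate it was -0.34 (limma adjusted p = 0.36). In these bulk samples a different number of cells of a type and a different amount of RNA per cell cannot be told apart, and the part of the epithelial signal in the difference was not tested further.

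**Figure D2:**
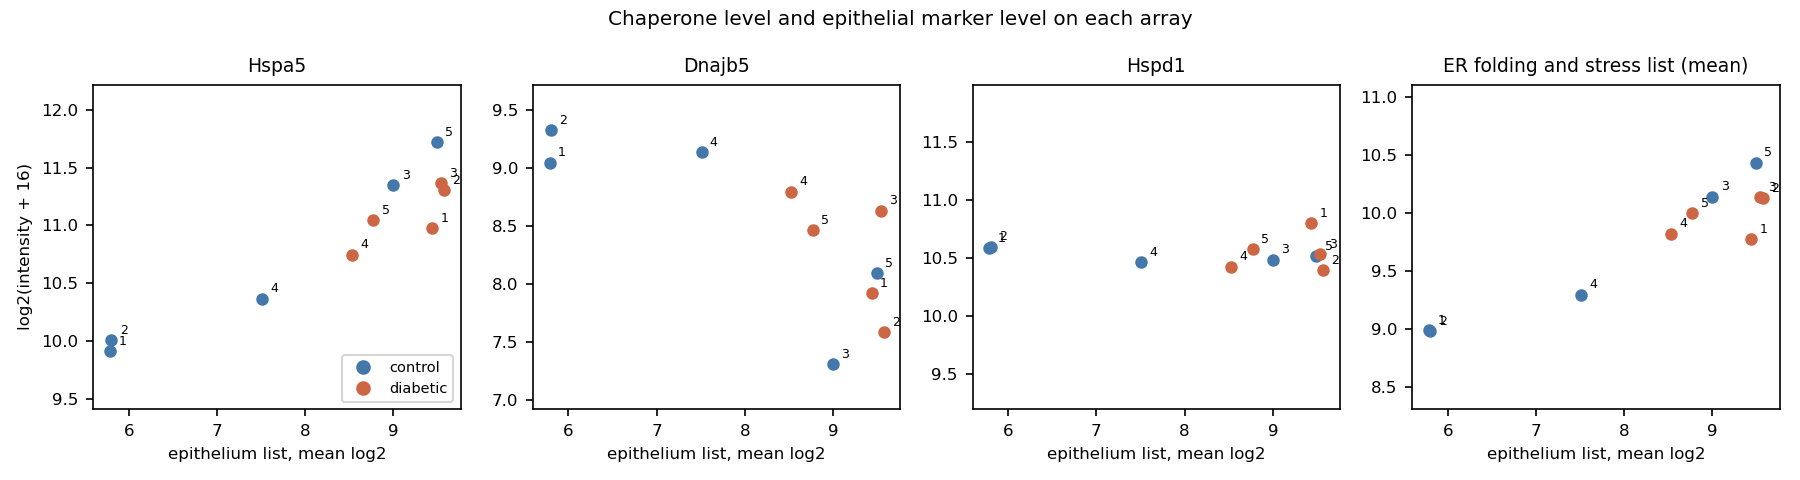
Log2 level of Hspa5, Dnajb5 and Hspd1 and the mean of the 20 tested genes for folding and stress in the endoplasmic reticulum (vertical axes, all spanning the same range) against the mean log2 level of the epithelial list on each of 10 arrays, with replicate numbers. Hspa5 and the reticulum list lie lowest where the epithelial level is lowest, in controls 1, 2 and 4, whereas Dnajb5 lies highest there and Hspd1 is level.

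Dnajb5, a J-domain protein that partners cytosolic Hsp70, had the opposite order. Its brighter probe set read 512.7, 626.9, 142.7, 546.9 and 256.9 in controls 1 to 5. It read 225.9, 176.0, 380.7, 428.2 and 337.3 in diabetic samples 1 to 5. Controls 1, 2 and 4 lay above every diabetic sample, and control 3 below all of them. The group means of 417.2 ± 207 and 309.6 ± 106 (SD, n = 5 each) differed by -0.30 ± 0.39 (SE) on the log2 scale, with a 95% interval from -1.15 to 0.55 (limma adjusted p = 0.692; exact permutation p = 0.516). The dimmer Dnajb5 probe set read 136.3, 237.6, 34.4, 313.8 and 33.9 in the controls and 53.9, 10.5, 92.4, 149.8 and 127.4 in the diabetic samples, for a difference of -0.55 ± 0.64 (limma adjusted p = 0.661). Both probe sets were lowest in controls 3 and 5 and in diabetic samples 1 and 2, and over the 10 arrays they correlated at a Pearson r of 0.912. The spread was wide in both groups: 5.13% of tested probe sets had a larger control SD than the brighter one and 2.35% a larger diabetic SD, and the dimmer one ranged 9.26-fold in control and 14.3-fold in diabetic samples. Leaving out 1 array moved the brighter by over 1.5 times for controls 1, 2, 3 and 4 and diabetic 2, always below 0. Without controls 1, 2 and 4, the highest controls by both probe sets, the sign turned for both, to 0.58 and 0.78. Leaving out the highest controls had to raise the difference.

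Hspb1, the small heat shock protein Hsp27 that also binds actin filaments, read 1429.3, 1438.7, 1178.1, 1530.0 and 764.5 in controls 1 to 5. In diabetic samples 1 to 5 it read 1681.0, 1226.2, 1264.5, 1514.1 and 1361.6. Control 5 was the lowest of all samples and control 3 the next lowest, so Hspb1 stood low in the 2 control samples in which Hspa5 stood high. The means of 1268 ± 310 and 1409 ± 188 (SD, n = 5 each) differed by 0.18 ± 0.19 (SE), with an interval from -0.23 to 0.59 (limma adjusted p = 0.615). Without control 5 the difference was 0.01, without controls 1, 2 and 4 it was 0.55 (limma adjusted p = 0.228) and with the epithelial covariate 0.47 (limma adjusted p = 0.285).

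Hspd1, the mitochondrial chaperonin, read 1520.3, 1532.1, 1415.2, 1397.2 and 1445.3 in the controls and 1761.1, 1328.8, 1465.9, 1357.6 and 1508.2 in the diabetic samples. Its ratio of diabetic to control was 1.01, with a 95% interval from 0.867 to 1.18 (limma adjusted p = 0.946). Of all tested probe sets, 99.0% had a larger SD among controls than Hspd1. Among diabetic samples its spread was ordinary, since 57.5% had a larger SD there. Diabetic 1 was the highest sample and diabetic 2 the lowest.

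Hsph1, the Hsp110 protein that exchanges nucleotide on Hsp70, read 451.4, 431.5, 350.2, 464.7 and 320.6 in the controls and 458.5, 334.0, 357.9, 353.6 and 300.6 in the diabetic samples. Controls 1, 2 and 4 and diabetic 1 formed the upper values, and the others lay between 300.6 and 357.9. The difference was -0.15 ± 0.14 (SE), with an interval from -0.46 to 0.15 (limma adjusted p = 0.563).

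Dnajb1, the Hsp40 that is induced with Hsp70 by heat, read 295.1, 324.0, 265.4, 353.7 and 404.8 in the controls by its brighter probe set. It read 462.5, 383.4, 388.7, 359.8 and 292.9 in the diabetic samples. The means were 328.6 ± 53.8 and 377.5 ± 60.9 (SD, n = 5 each), a difference of 0.19 ± 0.14 (SE), with an interval from -0.12 to 0.50 (limma adjusted p = 0.478). The dimmer probe set stood at 0.28 ± 0.16 (limma adjusted p = 0.371), and both were highest in diabetic 1. Control 5 was the highest control by both. Control 3, the other control rich in epithelial genes, was the lowest by the brighter probe set but the median control by the dimmer, at 262.5. Of the 8 probe sets, 4 were highest in diabetic 1, namely those of Hspb1 and Hspd1 and both of Dnajb1.

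Hspa8, the Hsp70 present in all cells, had no probe set of its own name. One probe set is annotated with Hspa8 and Haus8l2 and was designed on an accession that RefSeq gives as an Hspa8 transcript, so it is described beside the members without being counted. It read 4340.5, 5003.0, 4242.0, 4509.5 and 5073.4 in the controls and 4829.3, 4214.8, 4901.8, 4423.4 and 4877.8 in the diabetic samples. The ratio of diabetic to control had a 95% interval from 0.874 to 1.15 (limma adjusted p = 0.975). Hsp90aa1 was named on a pair of probe sets together with its pseudogene Hsp90aa1-ps17. Signal of the gene and of its copy cannot be told apart there, and no value is given for it.

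**Figure D3:**
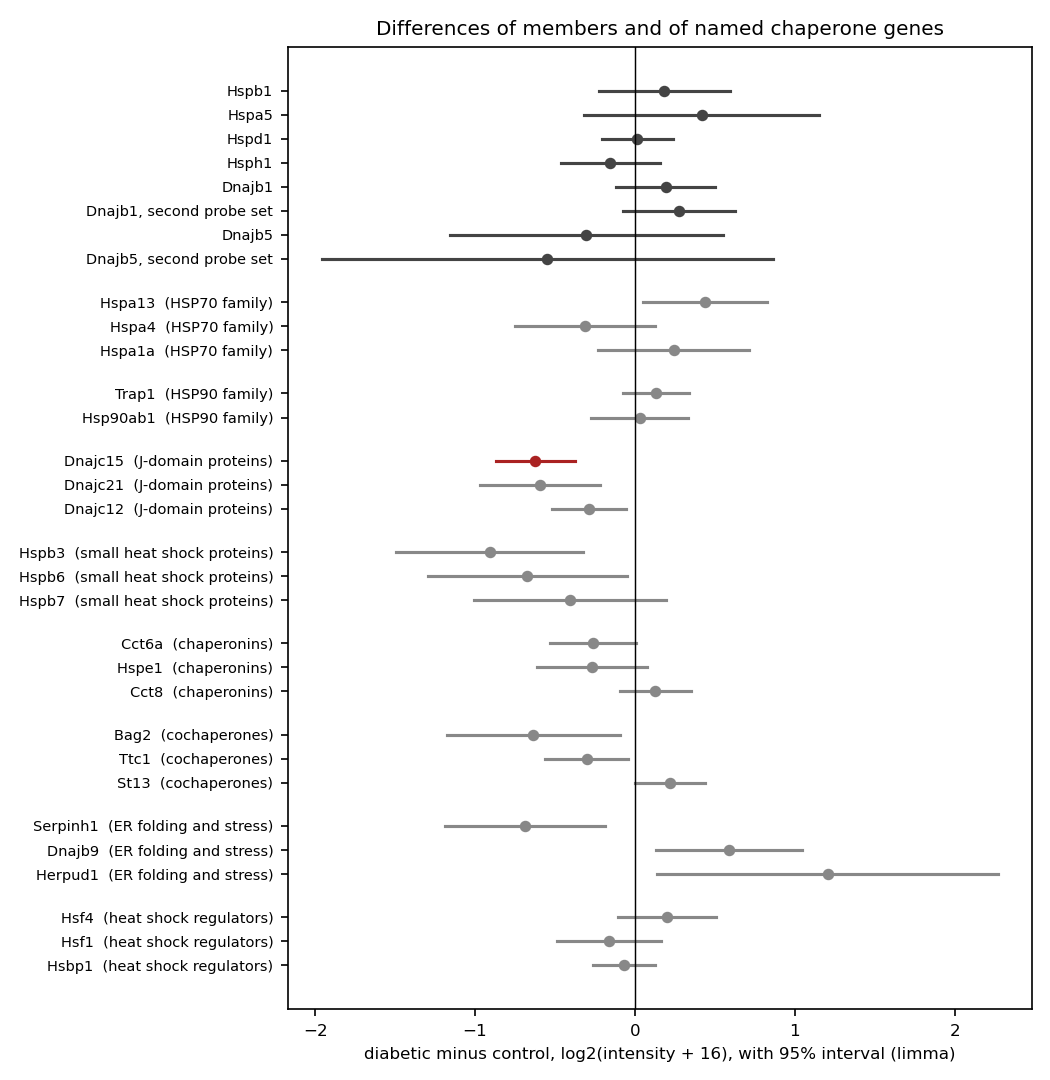
Differences between 5 diabetic and 5 control arrays in log2(intensity + 16), with 95% limma intervals, for the 8 member probe sets (dark) and, grey, up to 3 genes per chaperone list with the smallest unadjusted p. Every member interval spans 0, and the red point is Dnajc15, the only gene drawn with an adjusted p under 0.05.

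Per the array records, the arrays were scanned on 4 days and washed on 2 fluidics stations, and within these the members gave the following differences. On scan days 1, 2 and 3, each with 1 or 2 arrays per group, Hspa5 stood at 0.49, 0.61 and 0.22, and its station values were 0.56 and 0.67. Dnajb5 stood at -0.98, -1.22 and 0.31 on these days and at -0.86 and -0.68 on the stations, so its sign was not the same on every day. Hspb1 stood at 0.23, 0.13 and 0.14 and at 0.07 and -0.08, Hspd1 at -0.16, 0.33 and -0.04 and at -0.15 and 0.12, and the brighter Dnajb1 probe set at 0.14, 0.37 and 0.14 and at 0.26 and 0.07. Hsph1 was negative in all of them, from -0.02 to -0.34. Day 4 held 1 diabetic array alone. Station 1 held 4 control arrays and 1 diabetic array and station 2 the reverse, so station and group were partly confounded. As a measure of RNA quality, the log2 ratio of the 3′ to the 5′ probe set ran from 0.03 to 0.27 for Gapdh in control and from 0.09 to 0.14 in diabetic samples, and for beta-actin from 0.32 to 0.59 and from 0.22 to 0.57. For Gapdh, controls 5 and 3 had the highest ratios of all arrays, 0.27 and 0.20. For beta-actin they stood at 0.46 and 0.32, not above the other controls. The part of RNA quality was not tested.

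The tissue carried markers of smooth muscle, but those of skeletal muscle were brighter. All 9 smooth muscle genes listed were tested, with Acta2, smooth muscle actin, at 1463 ± 277 in control and 1791 ± 179 in diabetic samples (SD, n = 5 each). The smooth muscle list had a mean log2 level of 9.69 to 10.15 in controls and 9.91 to 10.18 in diabetic samples. Skeletal muscle genes lay above these on every array, at 12.06 to 12.45 and 11.73 to 12.27, with Actn3, a fast-fibre protein, at 11246 ± 1307 and 8442 ± 2185. The part of skeletal muscle in the chaperone levels was not tested.

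No further Hsp70, Hsp90 or chaperonin gene passed the test with all arrays weighted equally. Control 5 bore on this for the chaperone lists other than the Hsp90 genes and the heat shock regulators. Of the 23 list genes named here, which had been picked for a small p, 9 more passed without control 5, against 11.0% of all probe sets called. They were Hspa13, Cct6a, Dnajc21, Hspb3, Hspb6, Bag2, Serpinh1, Dnajb9 and Herpud1, with limma adjusted p from 0.00924 for Hspb3 to 0.0385 for Hspa13. With array weights 12 more passed, these 9 and Dnajc12, Ttc1 and St13. Of 4 tested Hsp70 genes beside the members 0 passed, with a median difference of 0.17 against 0.05 over all tested probe sets. Among them Hspa13, a microsomal Hsp70, stood at 0.44 ± 0.18 (SE; limma adjusted p = 0.248), Hspa4, a relative of Hsph1, at -0.31 ± 0.20, and Hspa1a, the Hsp70 most strongly induced by heat, at 0.24 ± 0.21. Hspa1a read 466.9 to 779.0 in controls and 520.1 to 1106.5 in diabetic samples, and 2 of the 5 diabetic samples lay above every control. Of the 2 tested Hsp90 genes neither passed, with Hsp90ab1, the constant cytosolic form, at 0.03 ± 0.14 and Trap1, the mitochondrial form, at 0.13 ± 0.09. Of 9 chaperonin genes 0 passed, with a median of -0.05. Hspe1, whose promoter window overlaps that of Hspd1, stood at -0.27 ± 0.16 (limma adjusted p = 0.374), and the cytosolic ring subunits Cct6a and Cct8 at -0.26 ± 0.12 and 0.13 ± 0.10.

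J-domain proteins held the 1 chaperone gene that passed. Of 21 tested, 0 rose and 1 fell (limma adjusted p), against 0.217% of all probe sets called higher and 0.207% called lower, and the median difference was -0.08. Dnajc15, known in human cells as methylation-controlled J protein of the mitochondrial inner membrane, fell by 0.62 ± 0.11 (SE) on the log2 scale, from 672.2 ± 77.6 to 430.7 ± 48.1 (SD, n = 5 each; limma adjusted p = 0.0496). It read 588.6 to 791.4 in controls and 388.1 to 510.0 in diabetic samples, without overlap. Its difference was -0.80, -0.42 and -0.72 on scan days 1, 2 and 3, and the station values were -0.77 and -0.42. The call was a narrow one: of 22 alternative settings 16 gave an adjusted p over 0.05, all with a lower value in diabetic tissue, and leaving out any 1 array other than control 5 ended it, with differences of -0.68 to -0.56 over these fits. Dnajc21, a J protein of ribosome assembly, stood at -0.59 ± 0.17 (limma adjusted p = 0.141) and Dnajc12 at -0.29 ± 0.10 (limma adjusted p = 0.216).

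Small heat shock proteins beside Hspb1 lay lower in diabetic samples in 6 of 6 tested genes, with 0 passing and a median of -0.32. Of all tested probe sets, 57.8% lay higher. Hspb3, a small heat shock protein of muscle, read 388.5, 348.2, 282.6, 370.5 and 132.1 in the controls and 99.1 to 191.2 in the diabetic samples, and stood at -0.91 ± 0.27 (SE; limma adjusted p = 0.148). Hspb6, or Hsp20, known for its part in smooth muscle relaxation, read 5067.2, 5208.7, 3756.7, 4592.2 and 1695.5 in the controls and 2008.4 to 3130.2 in the diabetic samples (-0.67 ± 0.28, limma adjusted p = 0.259). Control 5 lay within or below the diabetic range in both, and the other 4 controls above it. Hspb7, a small heat shock protein of heart and muscle, stood at -0.40 ± 0.27. Without controls 1, 2 and 4 Hspb6 stood at -0.10 and Hspb3 at -0.38. Markers of other cells lay lower with this list: 7 of 7 fibroblast genes, 15 of 16 skeletal muscle genes and 3 of 4 Schwann cell genes, with 0 called. Sizes were uneven: the collagens Col1a1, Col1a2 and Col3a1 stood at -2.05, -1.81 and -1.35, but Lum at -0.06 and Dcn at -0.01. Of the muscle genes, Pvalb, Casq1 and Actn3 stood at -1.79, -0.64 and -0.45, but Myh1 and Myh2 at -0.02 and -0.03. Endothelial genes lay higher in 6 of 6, from 0.04 for Kdr to 0.83 for Cldn5, and smooth muscle genes in 6 of 9, also with 0 called. The Schwann cell list had a mean log2 level of 8.20 to 9.61 in controls, lowest in control 5 as for the small heat shock list (8.94), and 8.55 to 9.17 in diabetic samples. The fibroblast list ran from 10.62 to 11.35 and from 9.77 to 10.49. Adipocyte genes were the marker list with calls, 2 of 5 tested, both higher, Lpl and Cidea (limma adjusted p of 0.0108 and 0.0413), against 0.217% of all probe sets called higher. The others were not called: Lipe stood at 0.60 and Fabp4 at 0.38, and Cfd went the other way, at -0.56. The part of these cells in the chaperone levels was not tested. Of 23 tested co-chaperones, which tune Hsp70 and Hsp90, 0 passed and 11 lay higher, against 57.8% of all tested probe sets. Bag2, an Hsp70 nucleotide exchange factor, stood at -0.64 ± 0.24 (limma adjusted p = 0.232), Ttc1 at -0.30 ± 0.12, and St13, which steadies Hsp70 on its substrate, at 0.22 ± 0.10. Bag2 read 735.9 to 827.9 in controls 1, 2 and 4, 336.2 to 381.7 in controls 3 and 5 and 316.2 to 408.9 in diabetic samples, and without the first 3 its difference was 0.01. Of 4 regulators, Hsf1 stood at -0.16 ± 0.15, Hsf4 at 0.20 ± 0.14 and Hsbp1, which restrains Hsf1, at -0.07 ± 0.09, and 0 passed.

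Most genes for folding and stress in the endoplasmic reticulum had controls 3 and 5 above controls 1, 2 and 4, as Hspa5 did. Of 20 tested genes 18 lay higher in diabetic samples, against 57.8% of all tested probe sets, and 0 passed, with a median of 0.39. Herpud1, a protein of reticulum-associated degradation, read 391.4, 425.9, 1267.3, 836.6 and 3201.7 in the controls and 1686.8 to 2558.1 in the diabetic samples (a difference of 1.2 ± 0.48, limma adjusted p = 0.247). Dnajb9, a J protein that partners Hspa5, read 561.1, 579.6, 855.9, 764.5 and 1125.2 in the controls and 870.3 to 1481.3 in the diabetic samples (0.58 ± 0.21, limma adjusted p = 0.204). In both, controls 1, 2, 3 and 4 lay below every diabetic sample, so control 3 stood lower against them than it did for Hspa5. Control 5 lay above all diabetic samples for Herpud1 and within their range for Dnajb9. Without controls 1, 2 and 4, Herpud1 stood at 0.0504 and Dnajb9 at 0.21, and with the epithelial covariate at 0.11 and 0.17. Serpinh1, the collagen chaperone Hsp47, went the other way, at -0.69 ± 0.23 (limma adjusted p = 0.181), and Col1a1, its client collagen, stood at -2.05 ± 0.43 (limma adjusted p = 0.0658) by its brightest probe set. Without controls 1, 2 and 4 Serpinh1 stood at -0.21.

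In 16 of the 20 reticulum genes, controls 3 and 5 both lay above controls 1, 2 and 4, samples told apart by their epithelial level after it was seen. This order held for 28.6% of all tested probe sets, and for 15 of 15 epithelial genes. Calr, calreticulin, read 1247.5 to 1765.8 in the first 3 samples and 3654.0 to 3998.8 in the other two, and Sdf2l1, a partner of Hspa5, 202.7 to 348.2 and 1247.1 to 1269.6. The reverse order, with controls 3 and 5 below, was seen in 4 of the 8 member probe sets and in 4 of 6 small heat shock genes, against 26.5% of all. The members with that order were Hspb1, Hsph1 and Dnajb5 by both probe sets. These are counts over 5 samples, given as a description.

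Matches in this list are printed to set them beside that of Hspa5. Among 18 reticulum genes with a promoter window, 5 held the endoplasmic reticulum stress element and 3 the type II form, found in 0.0508% of all windows. The matches of Hspa5 and of 5 of these 8 genes are printed, in the motif's own direction with fixed letters in capitals. Those of Canx, Hsp90b1 and Hyou1 are left out for length. The 3-unit heat shock element was held by 1 of the 18, Serpinh1, against 0.798% of all windows.
Hspa5: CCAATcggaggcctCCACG
Creld2: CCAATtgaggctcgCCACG
Calr: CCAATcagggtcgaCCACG
Xbp1: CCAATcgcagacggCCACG
Herpud1: ATTGGgCCACG
Dnajb11: ATTGGcCCACG
Creld2, a chaperone of secretory proteins, read 80.2 to 178.6 in controls 1, 2 and 4 and 790.4 to 856.9 in controls 3 and 5, and Dnajb11, another J protein of the reticulum, 153.2 to 193.1 and 322.4 to 383.9. Xbp1, a transcription factor of the unfolded protein response, read 1035.2 to 1490.8 and 2817.4 to 3629.3. A match of letters is a description and not a site in use.

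**Figure D4:**
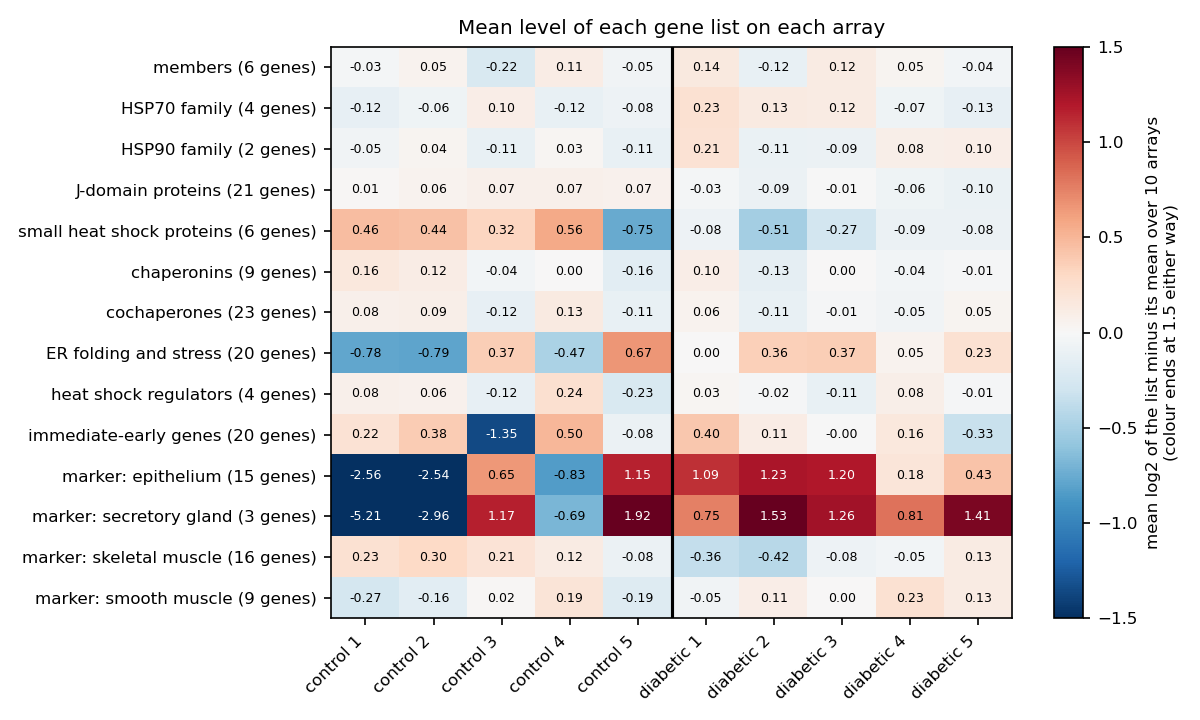
Mean log2 level of each gene list on each array, minus the list's mean over the 10 arrays (colour ends at 1.5 either way, numbers give the value). The reticulum list is low in controls 1, 2 and 4, as are the epithelial and gland lists, while the other chaperone lists except the small heat shock proteins stay within 0.25 of their own mean.

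Among 7137 other genes tested, those most like each member over the 10 arrays were sought by Pearson's r, given here as a description since arrays share their epithelial split and the highest of many values was taken. For Hspa5 they were Aph1a, a subunit of gamma-secretase (0.991), and Dock5 (0.990). For Dnajb5 they were Slc25a25, a mitochondrial carrier (0.974, with the same order of all 10 arrays), and Irf1, an interferon-responsive factor (0.940). For Hspb1 they were Bicd2, a dynein adaptor (0.979), and Adamtsl4 (0.964), and for Hsph1 they were Micu3 (0.936) and Pdgfra, a receptor of fibroblasts (0.936). For Dnajb1 they were Rbms2 (0.905) and Erf (0.903). Hspd1 was most like Aldh5a1 (0.870) and Myh1 (0.862), and these fell to 0.679 and 0.488 without the 2 arrays farthest from its median, so the likeness to Hspd1 rested on those arrays in part.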

How the data were processed

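Each array has 1 deposited intensity per probe set, on a linear scale, and the values show that the authors had scaled them so that each array's mean, without its lowest and highest 2% of values, is about 250.1. The summary software was not given in the sources used here. Detection calls were not used. The 57 control probe sets among 15923 were dropped. Intensities below 1 were raised to 1, and 16 was added before log2. The filter kept 9683 probe sets that exceeded the 40th percentile, an intensity of 85.9, on 5 or more of 10 arrays. Array medians were 116.7 to 131.3. Precision is limited by the number of arrays. The genes were named from the platform annotation, with symbols updated through Entrez identifiers.

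The comparison of diabetic with control arrays used limma 3.58.1 (R 4.3.3; two-sided moderated test, eBayes with a trend on intensity). P-values were adjusted by Benjamini-Hochberg over the 9683, with 0.05 as the threshold. Exact permutation tests used all 252 assignments, with a smallest possible p of 0.00794. The fit was tested on simulated data with independent noise of equal SD in both groups, where 79.4% of 2-fold changes were called and 5.04% of calls were false. In the real data controls varied more for 77% of tested probe sets, so these shares need not hold here. A gene with several probe sets was read by its brightest. Named were all members, up to 3 genes per chaperone list with the smallest p, and the 2 genes most like each member. Others (Calr, Sdf2l1, Creld2, Dnajb11, Xbp1, Col1a1 and the markers) were chosen after their values were seen. The members and lists were chosen with earlier results of these data known. Alternatives covered scaling, pseudocount, filter, batches, array weights and arrays left out.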

Additional observations from a re-analysis of the deposited data

Results flagged for a closer look

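In 2 of the 70 groups of 5 arrays checked, over 35 genes or probe sets, 1 array stood apart by Dixon's ratio (its gap to the nearest value over the whole range, limit 0.71), and chance alone flags about 1 in 20 groups. Neither was a member. Control 5 read 269.2 for Hspa13, whose remaining controls read 151.2 to 177.4 (ratio 0.727). Hspa4 read 86.0 in diabetic 4 and 144.8 to 162.4 in the other diabetic samples (ratio 0.814).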

How the results depend on the processing

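No paired analysis was possible because the sample titles of the groups share fewer than 2 numbers. The count of member probe sets called was 0 in every setting except array weights, which gave control 3 and control 5 the lowest weights (0.369 and 0.196). There 2 were called, Hspa5 (0.83, adjusted p = 0.0191) and the dimmer Dnajb1 probe set (0.38, adjusted p = 0.0479), among 2813 of all probe sets (29.1%). With 1 array left out it was 0 to 0. Without controls 1, 2 and 4 Herpud1 (0.0504), Dnajb9 (0.21) and Serpinh1 (-0.21) lay nearer 0 and Hspb1 (0.55) farther from it. Over all probe sets the count of 41 became 22 with a pseudocount of 1, 26 without the filter, 0 with either scan day or station as a block (1119 and 1483 at an unadjusted p under 0.05), 21 without controls 1, 2 and 4 and 17 with the epithelial covariate (the last 2 chosen after seeing the data). It ran from 0 to 1068 with 1 array left out, the highest without control 5.

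Signs turned without controls 1, 2 and 4 for Hspa5 (-0.44), Dnajb5 (0.58, dimmer probe set 0.78), Hsph1 (0.0892), Bag2 (0.0072) and Hsf1 (0.14). For each of these, the controls left out lay all above or all below the controls kept. That choice thus set the direction of the shift. With the epithelial covariate signs turned for Hspa5 (-0.34), Dnajb5 (0.41 and 0.51), Hsf1 (0.0352) and Hspa8 (0.00). With station as a block they turned for Hspb1 (-0.0047), Hspd1 (-0.0172), Hspa8 (-0.0326) and Hsp90ab1 (-0.14), with median centring for Hspd1 (-0.0614), Hspa8 (-0.0706) and Hsp90ab1 (-0.0466), with scan day for Hspa8 (-0.0193) and with array weights for Hsp90ab1 (-0.0829). With 1 array left out Hspd1 ran from -0.0475 to 0.0531, Hspa8 from -0.0247 to 0.0407 and Hsp90ab1 from -0.0391 to 0.10. The cause was not tested. None of these reversed values passed the threshold.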

Other observations

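Immediate-early genes, which are transcribed within minutes of a stimulus and often move with heat shock genes, were read beside the chaperones. Of 20 tested genes 0 passed and 14 lay higher in diabetic samples, against 57.8% of all tested probe sets, with a median difference of 0.15. Jun, a subunit of the AP-1 factor, stood at 0.53 ± 0.19 (SE; limma adjusted p = 0.217), Klf6 at 0.43 ± 0.18 and Klf10 at -0.41 ± 0.17. The list's mean log2 level was 10.02, 10.18, 8.45, 10.29 and 9.71 in controls 1 to 5 and 9.46 to 10.20 in diabetic samples, so control 3 was the lowest sample, as it was for the brighter Dnajb5 and Dnajb1 probe sets. Controls 3 and 5 both lay below controls 1, 2 and 4 in 14 of the 20 genes, against 26.5% of all tested probe sets.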
